A study of Mus musculus with 24 samples.

Results

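Back skin of 4 CD1 mice was compared between day 3 wounds and unwounded skin of the same animals. The 8 libraries, 4 of wounds and 4 of unwounded skin, were chosen by their labels (back, wound or control, mouse 1 to 4) from a series of 24 libraries of 12 mice that also covered the abdomen and the cheek. The mice came from an in-house colony, were 7 weeks old with hair cycles coordinated in telogen, the resting phase, and carried no genetic modification according to the labels. Each back mouse was shaved under anaesthesia and analgesia and received 2 excisional wounds of 2 mm diameter through the full thickness of the skin, and 3 days later wound tissue and adjacent healthy skin were taken with a punch of the same diameter. The unwounded group therefore shared the shaving, the anaesthesia and the wounded animal with the wound group. Whole tissue was frozen and its total RNA sequenced, and the comparison asks which genes change in a back wound at a single early time. Each group is 1 time point in 1 outbred stock, and the sources do not say whether both wounds of a mouse were combined.

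A skin wound passes through overlapping phases of clotting, inflammation, tissue formation and remodelling. In the inflammatory phase, chemokines draw in neutrophils and then monocytes, which become macrophages, while keratinocytes at the margin switch to wound keratins and migrate beneath the scab. Fibroblasts and sprouting vessels build granulation tissue, whose first matrix is rich in fibronectin, tenascin, hyaluronan and osteopontin rather than mature fibrillar collagen. Mouse back skin also holds a fat layer and a sheet of skeletal muscle, the panniculus carnosus, which a full-thickness wound cuts.

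Values are FPKM, fragments scaled by the length of the transcript and by the mapped fragments of the library. They summed to between 519018 and 548455 over all genes in the unwounded back libraries and to between 555932 and 584822 in the wounds. Between 15781 and 16118 genes were above 0 FPKM in the unwounded libraries and between 16332 and 16446 in the wounds. FPKM values hold no fragment counts, so depth and counting error are unknown. The skin label was borne out by Krt14, a keratin of basal epidermis (1361 ± 234 FPKM, mean ± SD, n = 4, in unwounded back), and by the fibrillar collagen gene Col1a1 (5634 ± 1039.9 FPKM). Skeletal muscle RNA was also abundant, with the alpha actin gene Acta1 at 7849 ± 1472 FPKM. The unwounded libraries of mice 1 and 3 stood apart in one respect, because they contained pancreas transcripts, with the insulin gene Ins2 at 114, 0, 117 and 0 FPKM in mice 1 to 4 and at 0 in all 4 wounds. How such transcripts entered the libraries was not tested. Of 15 pancreas genes examined 0 passed the test of the wound effect. Genes high in only mice 1 and 3 of the unwounded group could hardly pass it, so this does not show an unaffected contrast. In bulk tissue, fewer cells of a type and less RNA per cell cannot be told apart, and this holds for every change below.

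Wound effects were estimated as log2 fold changes of FPKM + 0.5, wound minus unwounded skin of the same mouse, with limma, a linear model with moderated variances, over all 24 libraries. A gene was called risen or fallen at an adjusted p under 0.001. Of 14423 tested genes, 2074 were called (14.4% of tested genes), of which 1443 rose (10%) and 631 fell (4.37%). The split depended on scaling. Quantile normalization, which makes the distributions of all libraries equal, gave 1075 risen and 989 fallen genes. It moved the median of all tested genes from 0.07 to -0.04. Median-ratio scaling gave 1223 risen and 814 fallen genes, and the 8 back libraries alone gave 1361 and 843 of 13776 tested genes. All 4 mice moved in the direction of the call for 2074 of 2074 called genes, an outcome that so strict a threshold with 4 pairs nearly fixes. The 4 wounds lay above all 4 unwounded libraries for 1414 of the risen genes, where 25% of tested genes did so, and below them for 616 of the fallen genes, where 15.4% did so. Leaving out 1 back mouse lowered the number of called genes to between 910 (without mouse 2) and 1191 (without mouse 1). It was 1027 both without mouse 3 and without mouse 4.

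Among called genes, the largest rises exceeded the largest falls, while the medians were of similar size. The lower values of the skeletal muscle list, described below, were not called over the 24 libraries and are not counted here. Of the risen genes, 765 changed by 1 or more on the log2 scale, 108 by 3 or more and 30 by 5 or more, whereas 290 fallen genes reached -1, 31 reached -2 and 4 reached -3. The median log2 fold change of the risen genes was 1.04 overall and 1.04, 1.06, 0.97 and 1.1 within mice 1 to 4. For the fallen genes it was -0.94 overall and -0.83, -1.0, -0.97 and -0.93 within the mice. A group of 17 risen genes was under 0.5 FPKM in all 4 unwounded libraries and over 5 FPKM in all 4 wounds. These were the chemokine genes Cxcl1, Cxcl2, Cxcl3 and Cxcl5, the innate immune genes Clec4e, Fpr1, Trem1, Treml4, Acod1, Osm, Csf3, Gm5483 and Stfa2l1, the muscle genes Myh3 and Tnnc1, and Tmprss11g and Uox.

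**Figure D1:**
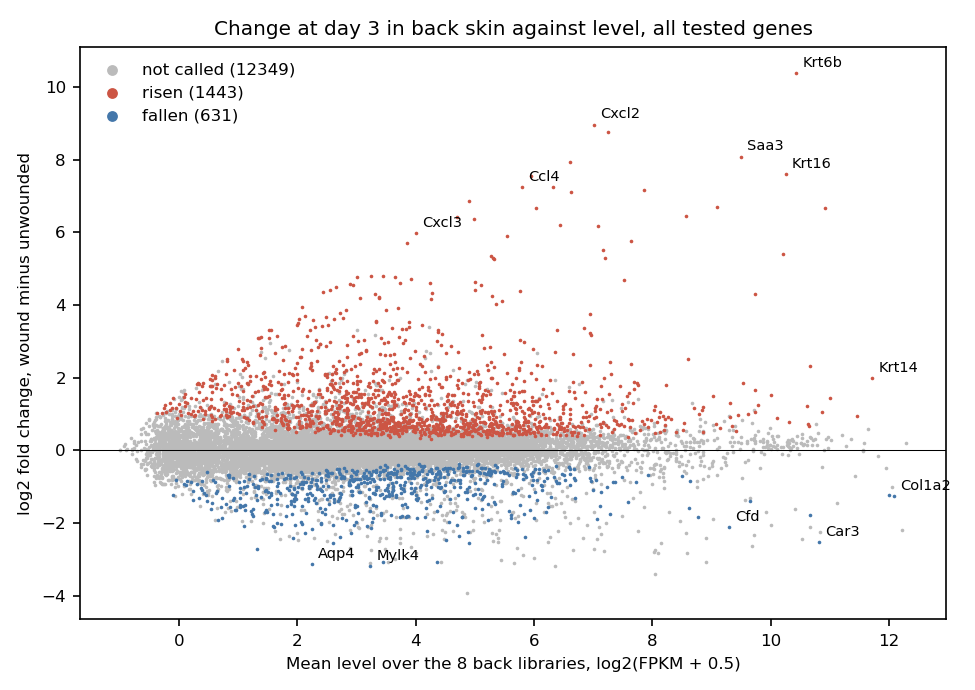
Log2 fold change, wound minus unwounded back, of each of 14423 tested genes (vertical axis) against its mean level over the 8 back libraries in log2(FPKM + 0.5) (horizontal axis), with 1443 risen genes in red and 631 fallen genes in blue. Rises extend to 10.38 for Krt6b, while the falls that were called end at -3.18 for Mylk4.

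The largest rise was that of Krt6b, a keratin gene of activated epidermis, which read 1.35, 2.25, 1.17 and 1.39 FPKM in the unwounded skin of mice 1 to 4 (the order used throughout) and 2892, 2894, 3543 and 1715 FPKM in their wounds. The log2 fold change was 10.38 ± 0.41 (± SE, adjusted p = 1.26e-07). The other genes among the 12 largest rises fell into a few families. Cxcl2, Ccl4 and Il1b encode secreted signals of inflammation, Saa3 and S100a8 encode an acute phase protein and a calcium-binding protein of neutrophils, and Krt16 is another wound keratin. Stfa2, Gm5416 and Gm5483 belong to the stefins, a cluster of protease inhibitor genes so similar that reads may be shared between copies, which also holds for Sprr2a2, of the small proline-rich proteins of the cornified envelope. The remaining gene, 2610528A11Rik, was under 1 FPKM in each unwounded library and rose by 7.94 ± 0.36 to 193 ± 33.3 FPKM. In the 8 back libraries alone, the adjusted p was 0.0019 for Sprr2a2 and 0.0031 for Saa3, above the threshold.

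At the other end, the largest fall was that of Mylk4, a kinase gene of striated muscle, from 16.7, 18.7, 14.2 and 15.7 FPKM to 1.96, 1.46, 0.74 and 1.44 FPKM, a log2 fold change of -3.18 ± 0.54 (adjusted p = 0.000887). The water channel gene Aqp4 (-3.13), Myoc (-3.08), Txlnb (-3.07), Asb10 (-2.55), Klhl38 (-2.40), Pkia (-2.36) and Ppp1r1a (-2.37) were also among the 12 largest falls. Genes of glycogen and glucose handling were represented by Ppp1r3c, a glycogen-targeting phosphatase subunit (-2.54), and Slc2a4, the insulin-regulated glucose transporter (-2.46). The most abundant of the 12 was Car3, a carbonic anhydrase of fat and muscle, which fell from 3211, 3744, 2186 and 3137 FPKM to 546, 637, 418 and 531 FPKM (-2.51 ± 0.23, adjusted p = 7.04e-06). For each of these 12 genes, picked for large called falls shared by all 4 mice, the groups did not overlap. Several of the 12 are genes of skeletal muscle, whose RNA was lower in all 4 wounds (described below), and the part of muscle content in these falls was not tested. Several of the calls were lost when a mouse was left out. Without mouse 1, 2, 3 or 4 this held for Mylk4 (adjusted p up to 0.00585, and likewise for each value in brackets). The same was true of Aqp4 (up to 0.00267), Txlnb (up to 0.00603), Ppp1r3c (up to 0.00439), Slc2a4 (up to 0.00374) and Ppp1r1a (up to 0.00559). Asb10 lost its call without mouse 1 or 2 (up to 0.00126), and Pkia without mouse 2, 3 or 4 (up to 0.00135). In these smaller fits the log2 fold changes stayed between -3.31 and -3.05 for Mylk4 and between -2.55 and -2.40 for Slc2a4. For Asb10 they lay between -2.69 and -2.38, and for Pkia between -2.55 and -2.21. All of these genes were called in the back libraries alone, with adjusted p from 2.08e-07 (Slc2a4) to 4.88e-06 (Pkia).

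**Figure D2:**
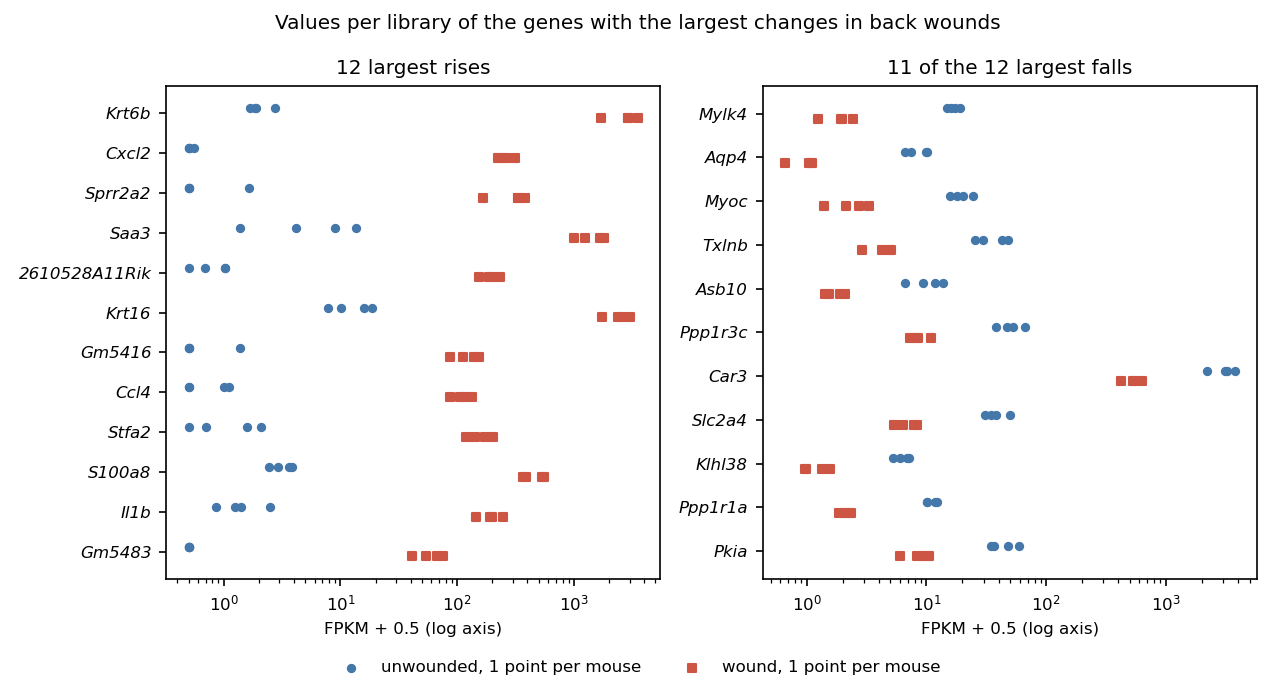
FPKM + 0.5 on a log axis for the 12 genes with the largest called rises (left) and 11 of the 12 with the largest called falls (right), 1 point per library, with unwounded skin as blue circles and wounds as red squares. The genes were picked for large called changes, and in each the 4 wounds and the 4 unwounded libraries do not overlap. The distance is largest for Krt6b, from a mean of 1.54 ± 0.483 to 2761 ± 762 FPKM (SD, n = 4).

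The genes with the smallest p were, among rises, Cxcl3, Ccl3, Cxcl2 and Lgmn, which encodes the lysosomal protease legumain (96.8 ± 27.5 to 337 ± 82.9 FPKM, log2 fold change 1.80 ± 0.09). Mouse 3 was the highest in both groups for Lgmn, at 137.9 FPKM unwounded and 460.7 FPKM in the wound. Among falls they were Fbxo32, a ubiquitin ligase of muscle atrophy (-1.83 ± 0.14), Synpo2 (-1.83 ± 0.16), Kif21a (-1.25 ± 0.11) and Ptpn3 (-1.24 ± 0.11). The most abundant risen genes in the wounds were Krt14, Krt6b, the stefin BC100530 (63.0 ± 78.1 to 3807 ± 443 FPKM, log2 fold change 6.66 ± 0.58), Lgals7, an epithelial galectin (1939.5 ± 300.1 to 3702 ± 369.5 FPKM, 0.94 ± 0.11), Krt1 and Fabp5, a fatty acid carrier of epidermis (538 ± 52.1 to 2716 ± 249 FPKM, 2.33 ± 0.17). For BC100530 the adjusted p in the 8 back libraries alone was 0.0067. The most abundant fallen genes in unwounded skin were Col1a2, Sparc, Car3, Mup10, Gsn and Cfd, and most of these are described with their groups below.

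Most ligands of the neutrophil-attracting chemokine list rose from low levels. Of 8 tested members, 6 rose and 0 fell, and the median log2 fold change was 3.74, against 0.07 over all tested genes. Cxcl2 was at 0, 0, 0.06 and 0 FPKM in unwounded skin and 314, 222, 237 and 259 FPKM in wounds (8.96 ± 0.32, adjusted p = 8.28e-08). Cxcl3 was listed at 0 in every library of unwounded skin and read 34.3, 29.4, 31.9 and 28.5 FPKM in the wounds, the smallest p of all tested genes (adjusted p = 9.57e-09). The size of both fold changes depends on the added 0.5 FPKM, because the unwounded values were at or near 0. Cxcl5 (5.70 ± 0.44), Cxcl1 (4.79 ± 0.35) and the platelet factor gene Pf4 (1.41 ± 0.16) rose with them, Pf4 from 65, 91.9, 78.5 and 70 FPKM to 177, 206, 172 and 269 FPKM, as did the receptor gene Cxcr2 (2.69 ± 0.26). Ppbp (1.69 ± 0.36, adjusted p = 0.00263) and the scavenging receptor gene Ackr1 (-0.32 ± 0.17, adjusted p = 0.155) were not called over the 24 libraries, and Ppbp was called in the 8 back libraries alone (0.000276).

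Pf4, Cxcl3, Cxcl1 and Cxcl2 lie next to each other on chromosome 5, between bases 90772435 and 90905938 of GRCm38, and all 4 rose. The promoters of Cxcl1, Cxcl2 and Cxcl3 are shown because these 3 neighbours rose together and because each holds the same 10-letter match to the NF-kappaB motif (GGGA, any base, then TTTCC). NF-kappaB is a transcription factor of inflammation. The sequences are RefSeq promoters of GRCm38.p6, 250 bases before to 50 bases after the transcription start, plus strand. Capitals mark the match and, in Cxcl3, also a TATAAA, the letters of the TATA box.
Cxcl1, chr5:90890995-90891294: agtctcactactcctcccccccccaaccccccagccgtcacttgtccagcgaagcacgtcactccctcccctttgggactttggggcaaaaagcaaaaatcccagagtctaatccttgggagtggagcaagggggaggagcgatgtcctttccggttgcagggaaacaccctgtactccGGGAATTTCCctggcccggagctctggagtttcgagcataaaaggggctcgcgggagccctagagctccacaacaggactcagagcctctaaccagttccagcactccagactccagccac
Cxcl2, chr5:90903649-90903948: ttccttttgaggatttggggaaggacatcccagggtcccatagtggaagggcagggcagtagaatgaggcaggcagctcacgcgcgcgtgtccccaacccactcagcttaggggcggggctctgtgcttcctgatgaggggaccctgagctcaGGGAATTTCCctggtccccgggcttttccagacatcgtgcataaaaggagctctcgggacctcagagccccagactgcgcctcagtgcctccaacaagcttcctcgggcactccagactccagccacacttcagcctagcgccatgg
Cxcl3, chr5:90785851-90786150: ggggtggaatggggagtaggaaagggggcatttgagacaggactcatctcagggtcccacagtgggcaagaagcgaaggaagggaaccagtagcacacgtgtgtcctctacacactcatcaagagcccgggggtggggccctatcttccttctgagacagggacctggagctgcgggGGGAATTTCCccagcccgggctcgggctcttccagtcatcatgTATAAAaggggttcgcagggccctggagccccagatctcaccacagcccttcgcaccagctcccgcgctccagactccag
The match began 71 bases before the start in Cxcl1, 97 in Cxcl2 and 73 in Cxcl3, and the TATAAA of Cxcl3 began 30 bases before. Searched on both strands, the NF-kappaB motif stood in 0.411% of all 32851 promoters in the table, in 0.481% of those of tested genes, in 1.18% of those of risen genes (17 of 1442 promoters) and in 0.151% of those of fallen genes (1 of 662). TATAAA stood in 8.4% of promoters of tested genes, 11% of risen and 8.31% of fallen genes. For the AP-1 motif TGANTCA the shares were 6.01%, 7.98% and 6.95%, for the STAT motif TTCCNGGAA 1.21%, 0.763% and 0.906%, and for the cyclic AMP response element TGACGTCA 2.7%, 1.66% and 2.72%. The promoters of tested genes covered 11449 of the 14423 genes, those of risen genes 1148 of 1443 and those of fallen genes 510 of 631, with more than 1 promoter for some genes. A match is a string of letters and not a measured binding site.

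Neutrophil granule and receptor genes rose in 17 of 24 tested members and fell in 0, with a median log2 fold change of 3.22. Their summed level was 183 to 386 FPKM in unwounded skin and 3050.3 to 3853 FPKM in wounds. A large part of these sums was the stefin Stfa3, at 109 ± 97.8 FPKM unwounded (250 FPKM in mouse 1) and 1600 ± 195 FPKM in wounds. S100a8, a subunit of calprotectin, read 3.37, 3.1, 1.95 and 2.42 FPKM unwounded and 535, 555, 369 and 389.5 FPKM in wounds (7.17 ± 0.54, adjusted p = 4.48e-06), and its partner S100a9 rose by 6.45 ± 0.41. Surface receptors of neutrophils rose from levels at or near 0, among them Trem1 (4.50 ± 0.31), Clec4d (6.37 ± 0.30) and Fpr1 (3.51 ± 0.18), as did Hdc, the enzyme that makes histamine (4.33 ± 0.20). The stefins Stfa2 (7.23 ± 0.48) and Stfa3 (4.30 ± 0.42) rose as well, although reads may be shared between copies and the call for Stfa3 was lost in the 8 back libraries alone (adjusted p = 0.0084). Granule genes of immature neutrophils were not called over the 24 libraries. Mpo, myeloperoxidase, averaged 9.21 ± 1.56 FPKM unwounded and 5.45 ± 1.7 FPKM in wounds, and was called as fallen in the 8 back libraries alone (adjusted p = 0.000838). Camp, cathelicidin, averaged 1.4 ± 1.35 and 0.6 ± 0.0849 FPKM. Ly6g, the classical surface marker, was at 0 in every library of unwounded skin and 0.135 ± 0.0574 FPKM in wounds (adjusted p = 0.207).

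Monocyte-attracting chemokines and their receptors followed, with 11 of 17 tested members risen, 0 fallen and a median of 1.88. Ccl3, a ligand of Ccr1, read 1.33, 0.6, 0.9 and 0.36 FPKM in unwounded skin and 156, 101, 109 and 153 FPKM in wounds (6.68 ± 0.27, adjusted p = 8.28e-08). Ccl4 rose by 7.23 ± 0.36, and Ccl2, the main ligand of Ccr2, by 3.18 ± 0.24. The receptor gene Ccr1 (2.73 ± 0.24) rose too. The most abundant member, Ccl8, went from 757, 529, 937 and 163 FPKM to 886, 994, 1396 and 1058 FPKM, with overlapping groups, and was not called (1.1 ± 0.34, adjusted p = 0.0198).

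Of 23 tested macrophage genes 11 rose and 0 fell (median 0.69), and the summed level was 1082 to 1518 FPKM in unwounded skin and 1949 to 2378 FPKM in wounds. Cd14, the co-receptor for bacterial lipopolysaccharide, rose by 3.75 ± 0.24, the scavenger receptor gene Msr1 by 2.65 ± 0.16, and Arg1, arginase, by 3.31 ± 0.26. Trem2 (3.31 ± 0.20), the inducible nitric oxide synthase gene Nos2 (3.04 ± 0.22), Itgam (2.01 ± 0.15), Cd68 (1.77 ± 0.17) and Adgre1, which encodes F4/80 (1.40 ± 0.10), rose as well. Other macrophage genes, some named after their values were seen, were not called, namely Mrc1 (0.51 ± 0.13, adjusted p = 0.00745), Cd163 (-0.11 ± 0.22, adjusted p = 0.714), Lyve1 (-0.18 ± 0.24, adjusted p = 0.556) and Timd4 (-0.42 ± 0.24, adjusted p = 0.165). C1qa, the most abundant of the list, stood at 203 ± 53.4 FPKM unwounded and 319.6 ± 43.5 FPKM in wounds (0.68 ± 0.17, adjusted p = 0.00543).

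Among 13 T cell genes, Cd4 (1.39 ± 0.17), Il7r (0.99 ± 0.17) and Icos (0.98 ± 0.15) rose and Cd3g, a chain of the T cell receptor complex, fell (-0.94 ± 0.16). Among 5 B cell genes, Fcrla (1.77 ± 0.18), Cd22 (1.16 ± 0.19) and Cd79b (1.07 ± 0.17) rose from low levels, with the list summing to 1.54 to 2.51 FPKM in unwounded skin and 5.01 to 6.05 FPKM in wounds. Of 10 mast cell genes, the tryptase Tpsab1 rose (1.62 ± 0.26) and 0 fell, and the most abundant, Mcpt4, was not called (-0.18 ± 0.28, adjusted p = 0.622). In the list of Langerhans cell and MHC class II genes only Flt3 was called of 14 (1.09 ± 0.20). Among all tested genes 10% rose, so 1 call in the mast cell list or in this list is near that share. The wounds lay above all unwounded libraries for 9 of the 14 genes, where 25% of all tested genes did so. Cd74, the invariant chain, went from 1288, 1315, 1661 and 989 FPKM to 1798, 2014, 2218 and 2658 FPKM (0.73 ± 0.27, adjusted p = 0.0446). With any 1 back mouse left out, the calls were lost for Cd3g (up to 0.00475) and Flt3 (up to 0.00737). They were also lost for Il7r without mouse 1 or 3 (up to 0.00545) and Icos without mouse 1, 2 or 4 (up to 0.00277). The same held for Cd22 without mouse 1, 2 or 3 (up to 0.00298) and Cd79b without mouse 1, 3 or 4 (up to 0.00304). Tpsab1 lost its call without mouse 1, 2 or 4 (up to 0.00366).

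Interleukin-1 signalling rose in its ligand, its sensor and the antagonist gene Il1rn. Of 15 tested genes of the family 9 rose and 0 fell (median 1.22). Il1b, the ligand released by myeloid cells, read 0.75, 1.97, 0.92 and 0.36 FPKM unwounded and 245, 144, 199.9 and 192 FPKM in wounds (7.11 ± 0.40, adjusted p = 8.51e-07), with a wide gap between the groups. Nlrp3, the sensor of the inflammasome that matures IL-1 beta, rose by 3.78 ± 0.23, the alarmin gene Il33 by 2.72 ± 0.30 and its receptor gene Il1rl1 by 2.40 ± 0.29. The epidermal ligand gene Il1a was not called (0.49 ± 0.21, adjusted p = 0.0699).

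In the IL-6 family, 8 of 16 tested genes rose and 0 fell (median 0.65), and between 5 and 6 rose without 1 mouse. Osm, oncostatin M, was the largest and rose from 0.23, 0, 0.16 and 0.1 FPKM to 16.4, 10.2, 13.7 and 16.8 FPKM (4.56 ± 0.32, adjusted p = 1.19e-06). The feedback inhibitor gene Socs3 (1.75 ± 0.18), Bcl3 (1.57 ± 0.12) and Il6 itself (0.105 ± 0.102 to 1.19 ± 0.495 FPKM, 1.44 ± 0.25) rose, and the call for Il6 was lost without mouse 1, 2 or 3 (up to 0.00507). The receptor subunit genes Il6st (-0.08 ± 0.13), Il6ra (-0.12 ± 0.14) and Lifr (-0.14 ± 0.11) were not called, with adjusted p of 0.649, 0.482 and 0.337. Il11ra1, the most abundant of the list, was not called either (0.39 ± 0.13, adjusted p = 0.0257). The cytokine gene Tnf, outside these lists, rose by 3.52 ± 0.27.

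Antimicrobial and S100 genes of epithelium rose for 10 of 17 tested members and fell for 0 (median 1.16), and between 3 and 6 rose when 1 mouse was left out. Saa3, serum amyloid A3, was at 3.65, 8.53, 13.1 and 0.89 FPKM unwounded and 997, 1258, 1808 and 1675 FPKM in wounds (8.08 ± 0.56). Slpi, a secreted inhibitor of neutrophil elastase, rose by 5.28 ± 0.46, while the most abundant member, S100a11, rose by 0.66 ± 0.10, a call lost without mouse 2, 3 or 4 (up to 0.00241). Complement genes went both ways, with 4 of 17 risen and 4 fallen. The receptors for the anaphylatoxins, C3ar1 (2.28 ± 0.12) and C5ar1 (1.55 ± 0.15), rose together with Cfb (1.93 ± 0.21) and Cfp (1.35 ± 0.16). Cfd, factor D or adipsin, which fat cells secrete, fell from 1087, 1368, 832 and 782 FPKM to 231, 191, 197 and 324 FPKM (-2.10 ± 0.35), and Cd55 (-1.0 ± 0.16), Cd59a (-0.87 ± 0.14) and C6 (-1.5 ± 0.26) fell with it. With any 1 back mouse left out, the calls were lost for Cfd (up to 0.0051), Cd59a (up to 0.00347) and C6 (up to 0.0055). That for Cd55 was lost without mouse 2, 3 or 4 (up to 0.00305). The log2 fold changes stayed negative in these smaller fits, between -2.38 and -1.86 for Cfd and between -0.93 and -0.81 for Cd59a. C7 had a log2 fold change of -2.67 ± 0.51, the largest value in the list, which was not called over the 24 libraries (adjusted p = 0.0018) and was called in the 8 back libraries alone (1.1e-06).

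The summed level of interferon-stimulated genes was higher in each wound than in the same mouse's unwounded skin, by amounts that varied widely between mice. All 22 tested members had a positive log2 fold change (median 1.71), yet 0 were called by limma over the 24 libraries, against 17 at an unadjusted p under 0.05 and 3 in the 8 back libraries alone. Many tested genes passed such a threshold, with 6622 of 14423 at an adjusted p under 0.05. The summed level in mice 1 to 4 was 273, 336, 602 and 181 FPKM unwounded and 967, 467, 2505 and 256 FPKM in the wounds. These sums overlapped between the groups. Within-mouse medians over the list were 2.34, 1.23, 2.52 and 0.92. Isg15, a ubiquitin-like protein induced by interferon, read 5.97, 7.79, 33.8 and 5.05 FPKM unwounded and 111, 43.2, 310.4 and 10.5 FPKM in wounds (2.67 ± 0.63, adjusted p = 0.00613). Mouse 3 was the highest in both groups and mouse 4 the lowest. Ifi27l2a, the most abundant member, had a log2 fold change of 0.34 ± 0.40 (adjusted p = 0.509) and was lower in the wounds of mice 2 and 4 (-0.56 and -0.36).

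The epidermal changes were dominated by genes of activated keratinocytes. Of 28 tested genes of wound-activated epidermis 19 rose and 0 fell (median 1.66), and the summed level went from 859 to 1263 FPKM to 9219.7 to 14468 FPKM. Krt16, the partner of Krt6 keratins, read 15.3, 7.36, 18 and 9.57 FPKM unwounded and 2405, 2553, 3018 and 1732 FPKM in wounds (7.59 ± 0.41, adjusted p = 6.08e-07). Krt6a, which is also expressed in the follicle, started higher, at 49.5, 68.8, 49.4 and 47.6 FPKM, and rose by 5.40 ± 0.39 to 2314 ± 486 FPKM. The envelope precursor gene Sprr1b rose by 6.69 ± 0.43. Other members of the list rose too, namely the fibronectin receptor subunit Itga5 (1.73 ± 0.09), the urokinase receptor Plaur (2.86 ± 0.20) and the collagenase Mmp13 (4.19 ± 0.25). Which cells of the whole tissue these transcripts came from was not tested, and migration was not measured. The gap junction genes Gjb2 (5.77 ± 0.66) and Gjb6 (5.29 ± 0.54) also rose.

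Genes of resting epidermis did not move as one. Of 20 tested members 3 rose, 1 fell and the median was -0.15. Krt14 rose from 1654, 1192, 1153 and 1446 FPKM to 5414, 5516, 6336 and 4286 FPKM (1.99 ± 0.22, adjusted p = 1.94e-05), whereas its partner Krt5 was not called (0.33 ± 0.11, adjusted p = 0.0285). Krt1, of the spinous layer, rose by 1.45 ± 0.19 and its partner Krt10 was not called (0.02 ± 0.16, adjusted p = 0.938). Repetin (Rptn) rose by 4.10 ± 0.31, while the related envelope gene Flg2, filaggrin 2, fell by 1.70 on the log2 scale, a call lost without mouse 1, 2, 3 or 4 (up to 0.00181). In the hair follicle list 3 of 21 tested members fell and 0 rose (median -0.38), where 4.37% of all tested genes fell. Lgr6, of follicle stem cells, had the smallest p (-0.99 ± 0.15). The others were Cd34, listed for the follicle bulge (-0.86 ± 0.15, 272 ± 28.0 FPKM unwounded), and Gata3, listed for the inner root sheath (-0.65 ± 0.11). Whether these transcripts came from follicles was not tested. On leaving out any 1 mouse 0 were called, and the calls were lost for Lgr6 without mouse 1, 2, 3 or 4 (up to 0.00164), Cd34 without mouse 1, 2, 3 or 4 (up to 0.00617) and Gata3 without mouse 1, 2, 3 or 4 (up to 0.00482). Krt79, of the follicle opening, was not called (0.32 ± 0.13, adjusted p = 0.061). Of 14 sebaceous gland genes 0 were called by limma (8 at an unadjusted p under 0.05), with Scd1 at 575 ± 94.8 FPKM unwounded and 449 ± 48.2 FPKM in wounds. That threshold is lenient here, since 6622 of all 14423 tested genes passed even an adjusted p under 0.05.

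**Figure D3:**
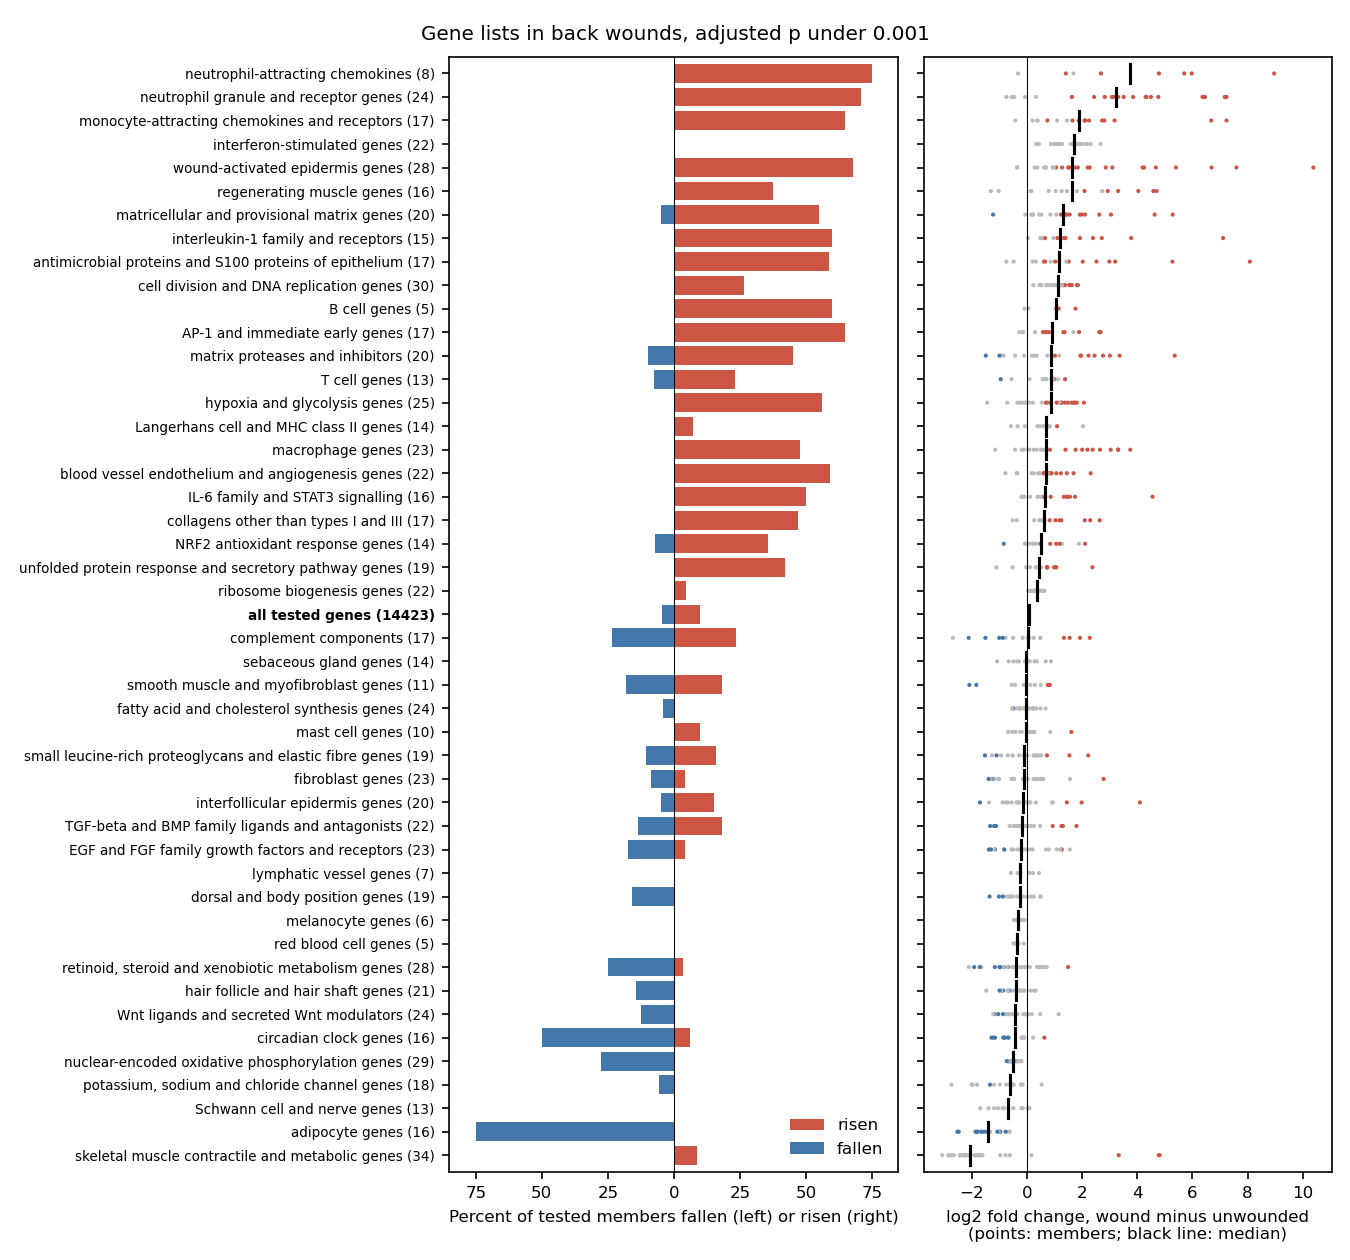
Left, the percent of tested members of each gene list that fell (blue, to the left) or rose (red, to the right) in back wounds, with the number tested in brackets and all 14423 tested genes for comparison. Right, the log2 fold change of each member as a point and the median as a black line, from 3.74 for neutrophil-attracting chemokines to -2.07 for skeletal muscle genes, where 0 falls were called in spite of that median.

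Skeletal muscle RNA was lower in the wound of every mouse. The 34 tested contractile and metabolic genes summed to 22890.2 to 36321 FPKM in unwounded skin and to 5266 to 7484 FPKM in wounds. For 27 of them the 4 wounds lay below all unwounded libraries, where 15.4% of all tested genes did so. The median log2 fold change was -2.07. In the model of all 24 libraries 0 of them passed the threshold downwards (28 at an unadjusted p under 0.05), but in the 8 back libraries alone 27 did. Over all 14423 tested genes, 2578 were lower at an adjusted p under 0.05 in the 24 libraries. Acta1 went from 7519.8, 9737, 6172 and 7966 FPKM to 1659, 2034, 1318 and 1797 FPKM, with a log2 fold change of -2.20 ± 0.63 and an adjusted p of 0.0159 in the 24 libraries and of 4.5e-07 in the 8. The creatine kinase gene Ckm changed by -2.42 ± 0.72 and the oxygen store gene Mb, myoglobin, by -3.06 ± 0.60 (adjusted p = 0.019 and 0.00213 in the 24 libraries, 3.45e-07 and 8.2e-08 in the 8).

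At the same time, troponins of slow and developing muscle rose. Tnnc1, slow troponin C, went from 0.1, 0.3, 0 and 0.21 FPKM to 13.4, 21.3, 18.2 and 18 FPKM (4.81 ± 0.43, adjusted p = 9.98e-06), Tnni1 rose by 4.78 ± 0.42 and Tnnt1 by 3.33 ± 0.38, and these were the 3 members of the muscle list that were called. Genes of regenerating muscle rose in 6 of 16 tested members and fell in 0 (median 1.64). Mymk, myomaker, which fuses myoblasts, was at 0.71, 0.31, 0.2 and 1.7 FPKM unwounded and 29.1, 25.6, 24.4 and 35.5 FPKM in wounds (4.70 ± 0.29, adjusted p = 6.18e-07). Myh3, the embryonic myosin heavy chain, rose by 4.58 ± 0.35. The cardiac and fetal muscle genes Actc1 (5.89 ± 0.40) and Tnnt2 (3.12 ± 0.27), outside the lists, also rose. Des, desmin, which mature fibres also contain, was the most abundant member and was not called over the 24 libraries (-1.02 ± 0.46, adjusted p = 0.0917) but was called in the 8 back libraries alone (6.62e-05), and the satellite cell genes Pax7 (0.14 ± 0.13) and Myf5 (0.17 ± 0.17) had adjusted p of 0.409 and 0.447.

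Adipocyte genes fell together. Of 16 tested members 12 fell and 0 rose, the median was -1.42, and the summed level went from 3446 to 5797 FPKM to 1153 to 1450.1 FPKM. Adipoq, adiponectin, went from 159, 178, 127 and 109 FPKM to 56.4, 53.2, 54.5 and 59.8 FPKM (-1.32 ± 0.25, adjusted p = 0.0012), and the groups did not overlap. It was not called over the 24 libraries and was called in the 8 back libraries alone (6.16e-05). The lipid droplet genes Plin1 (-1.65 ± 0.21) and Cidec (-1.86 ± 0.29) fell. Between 3 and 8 members fell when 1 mouse was left out, and the call was lost for Cidec without mouse 1, 2 or 3 (up to 0.00354). Synthesis genes for fatty acids and cholesterol did not follow, with 1 of 24 fallen (4.37% of all tested genes fell), Acacb (-0.50 ± 0.09), a call lost without mouse 1, 2, 3 or 4 (up to 0.00529). Their median was -0.03, and Msmo1 had a log2 fold change of 0.00 (adjusted p = 0.999).

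**Figure D4:**
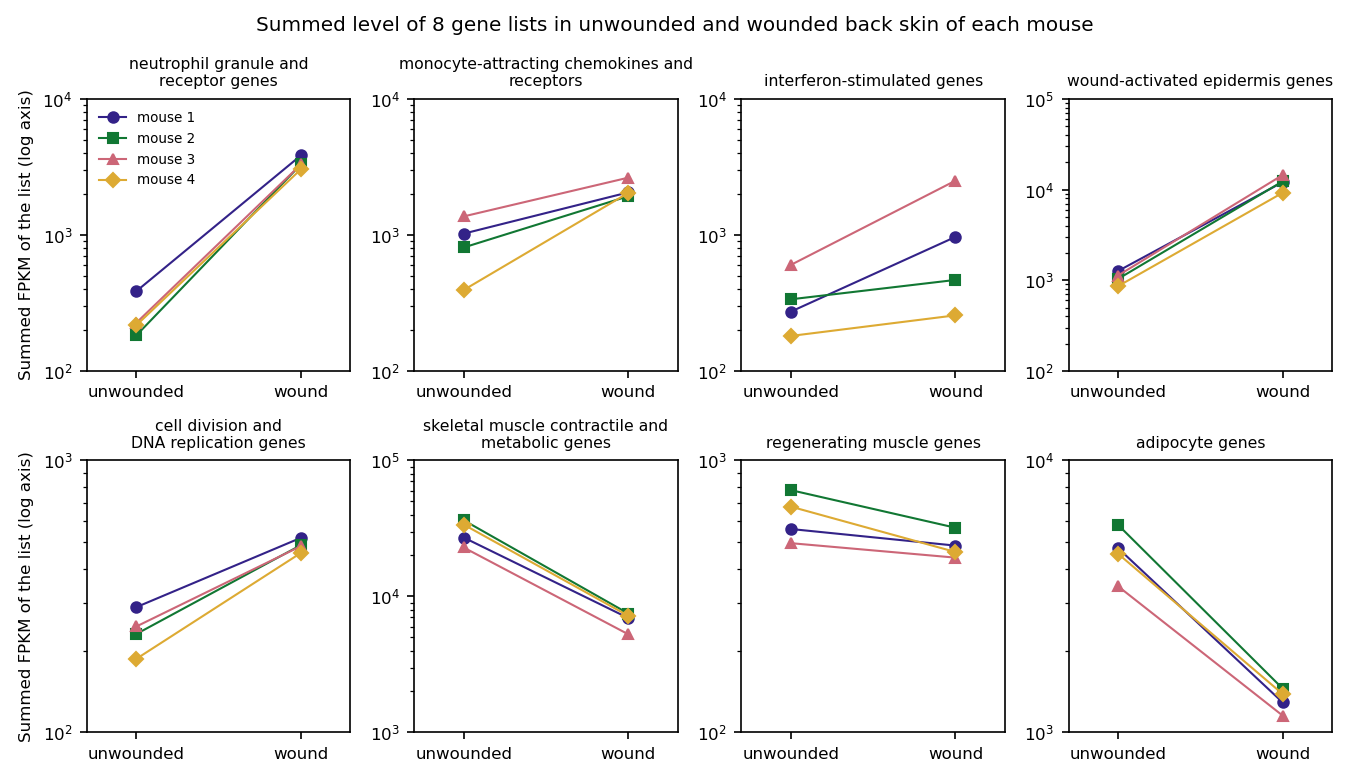
Summed FPKM of 8 gene lists (log axis) in the unwounded skin and the wound of each mouse, with 1 line per mouse. The 4 lines run together for neutrophil, epidermal, muscle and adipocyte genes, and differ in height and slope for the interferon-stimulated genes, where mouse 3 lies at 602 and 2505 FPKM and mouse 4 at 181 and 256 FPKM.

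RNA of dermal matrix genes moved in both directions. The major fibrillar collagen Col1a2 fell from 4736, 5587, 7356 and 6771 FPKM to 2309, 2116, 2633 and 3108 FPKM (-1.26 ± 0.21, adjusted p = 0.000479), while Col1a1, with 4648, 5188, 7074 and 5624 FPKM and 2497, 2268, 3048 and 3476 FPKM, was not called over the 24 libraries (-1.0 ± 0.21, adjusted p = 0.00197) and was called in the 8 back libraries alone (0.000212). Of 17 collagens other than types I and III, 8 rose and 0 fell (median 0.64), and 5 rose without any 1 mouse. Col12a1, a fibril-associated collagen of tissue under tension, rose from 2.05, 2.17, 2.57 and 2.7 FPKM to 18.9, 21.4, 16.7 and 13.4 FPKM (2.64 ± 0.24), and Col5a3 (2.30 ± 0.16), Col8a1 (2.10 ± 0.22) and the basement membrane collagen Col18a1 (1.25 ± 0.10) rose as well. Col6a2, the most abundant of this list, was not called (0.64 ± 0.15, adjusted p = 0.004).

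Provisional matrix genes rose in 11 of 20 tested members and fell in 1 (median 1.32). Tnc, tenascin C, read 2.14, 1.92, 2.35 and 1.47 FPKM unwounded and 61.5, 66.7, 76.1 and 41.7 FPKM in wounds (4.63 ± 0.30, adjusted p = 1.25e-06). Spp1, osteopontin, rose by 5.28 ± 0.38 over the 24 libraries, with an adjusted p of 0.0019 in the 8 back libraries alone. The hyaluronan cross-linking gene Tnfaip6 (2.62 ± 0.27) and Vcan, versican (1.56 ± 0.17), rose too. Sparc, a collagen chaperone of mature matrix, was the one that fell (5724 ± 975 to 2450.0 ± 337 FPKM, -1.22 ± 0.21). Postn, periostin, had a log2 fold change of 0.20 ± 0.16 and an adjusted p of 0.327. The calls were lost for Col1a2 without mouse 1, 2, 3 or 4 (up to 0.00408) and Sparc without mouse 1, 2, 3 or 4 (up to 0.00485).

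Proteases and their inhibitors rose in 9 of 20 tested members and fell in 2 (median 0.88). Timp1, an inhibitor of metalloproteinases, rose from 18.1, 15.9, 31.8 and 15.7 FPKM to 195, 202, 259 and 174 FPKM (3.36 ± 0.24). Adam8, of myeloid cells (3.01 ± 0.17), Adamts4 (2.76 ± 0.21), Adam12 (2.45 ± 0.19) and Mmp19 (1.97 ± 0.17) rose. Timp3, a matrix-bound inhibitor, fell (-0.99 ± 0.14), as did Timp4 (-1.48 ± 0.25). Ctsk, cathepsin K, the most abundant member, was not called (-0.42 ± 0.18, adjusted p = 0.0689).

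Proteoglycans and elastic fibre genes went both ways, with 3 of 19 risen, the lysyl oxidase Loxl3 (2.23 ± 0.19), Emilin1 (1.54 ± 0.11) and biglycan, Bgn (0.73 ± 0.10), and 2 fallen, Omd (-1.51 ± 0.16) and Aspn (-1.1 ± 0.18). Loxl1 (0.39 ± 0.16, adjusted p = 0.0599) and Prelp (-0.09 ± 0.16, adjusted p = 0.681) were not called. Among 23 fibroblast genes Crabp1, of the upper dermis, rose (2.78 ± 0.14) and Gsn, gelsolin (-1.38 ± 0.20), and Col1a2 fell, with a median of -0.12. En1, a marker of a scar-forming dorsal lineage, was at 3.92 ± 0.362 FPKM unwounded and 4.78 ± 0.602 FPKM in wounds (0.25 ± 0.12, adjusted p = 0.098). Of 11 smooth muscle and myofibroblast genes, Mcam (0.83 ± 0.11) and Rgs5 (0.76 ± 0.14), of pericytes, rose, and Lmod1 (-2.08 ± 0.34) and Synpo2 fell. Acta2, the actin that marks myofibroblasts, was not called (73.3, 86.4, 99.2 and 87.4 FPKM unwounded, 118, 121, 120.5 and 132 FPKM in wounds, 0.51 ± 0.11, adjusted p = 0.00267). The calls were lost for Timp3 without mouse 2, 3 or 4 (up to 0.00164), Timp4 without mouse 1, 2, 3 or 4 (up to 0.00276), Bgn without mouse 1, 2 or 4 (up to 0.00158), Aspn without mouse 1, 2, 3 or 4 (up to 0.00424), Gsn without mouse 1, 2 or 3 (up to 0.00207), Rgs5 without mouse 1, 2 or 3 (up to 0.00474) and Lmod1 without mouse 1, 2, 3 or 4 (up to 0.00532).

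Blood vessel genes rose in 13 of 22 tested members and fell in 0 (median 0.69). Without 1 mouse between 6 and 8 rose. Apln, apelin, a gene of vessel tip cells, rose from 1.49, 3.1, 1.01 and 0.97 FPKM to 9.94, 11.2, 7.55 and 9.36 FPKM (2.31 ± 0.20, adjusted p = 3.3e-06), and its receptor gene Aplnr rose by 1.23 ± 0.14. The adhesion molecule gene Vcam1, which captures leukocytes, rose by 1.70 ± 0.15 and the pan-endothelial gene Pecam1 by 0.70 ± 0.11, a call lost without mouse 1, 3 or 4 (up to 0.0024) and with median-ratio scaling (0.00198) and quantile normalization (0.00276). By contrast 0 genes were called by limma among 7 lymphatic vessel genes, 13 Schwann cell and nerve genes, 6 melanocyte genes and 5 red blood cell genes, with medians of -0.23, -0.66, -0.32 and -0.36. At an unadjusted p under 0.05 there were 2, 7, 2 and 1 in these lists, and 0 in each in the 8 back libraries alone. Such counts do not set the lists apart, since 6622 of all 14423 tested genes passed even an adjusted p under 0.05 in limma. Pmp22, a myelin gene that fibroblasts also express, had a log2 fold change of -0.88 ± 0.19 (adjusted p = 0.00303), and Ccl21a, the lymphatic chemokine, of -0.33 ± 0.24 (adjusted p = 0.275).

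Genes of cell division were higher in wounds throughout. All 30 tested members had a positive log2 fold change (median 1.12). For 29 of them the 4 wounds lay above all 4 unwounded libraries, where 25% of all tested genes did so. Over the 24 libraries 8 were called and 0 fell, and in the 8 back libraries alone 25 were called, but 0 were called without any 1 of the 4 mice. Plk1, a mitotic kinase, read 4.75, 3.85, 3.56 and 2.24 FPKM unwounded and 14, 14.8, 14.1 and 12.8 FPKM in wounds (1.85 ± 0.28, adjusted p = 0.000321). Mki67 read 7.01, 5.44, 5.02 and 3.2 FPKM and 11.9, 10.6, 8.99 and 8.16 FPKM (0.91 ± 0.30, adjusted p = 0.0278). Top2a (1.24 ± 0.29, adjusted p = 0.00505), Ccnb1, cyclin B1 (1.26 ± 0.25, adjusted p = 0.0019), Mybl2 (1.09 ± 0.27, adjusted p = 0.006) and the replication helicase subunit Mcm2 (0.71 ± 0.19, adjusted p = 0.00973) showed the same direction. Their adjusted p in the 8 back libraries alone were 0.000183 for Mki67, 1.07e-05 for Top2a, 1.06e-05 for Ccnb1, 0.000434 for Mybl2 and 0.000801 for Mcm2. The call for Plk1 was lost without mouse 1, 2, 3 or 4 (up to 0.00277).

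The energy metabolism lists differed in the direction of their calls. Of 25 hypoxia and glycolysis genes 14 rose and 0 fell (median 0.86). Their summed level was nevertheless lower in wounds, at 6479 to 7157 FPKM against 7224 to 11181 FPKM in unwounded skin. The glucose transporters Slc2a3 (2.07 ± 0.23) and Slc2a1 (1.63 ± 0.17) rose, and Eno1, enolase, rose from 152, 124, 144 and 115 FPKM to 456, 501, 491 and 427 FPKM (1.81 ± 0.13, adjusted p = 8.66e-07). The muscle-type aldolase gene Aldoa (-1.43 ± 0.28, adjusted p = 0.00168) and Gapdh (-0.71 ± 0.27, adjusted p = 0.0457) were not called over the 24 libraries, and Aldoa was called as fallen in the 8 back libraries alone (1.04e-05). Nuclear-encoded subunits of oxidative phosphorylation were lower, with 29 of 29 negative log2 fold changes (median -0.51), 8 fallen and 0 risen. The differences were small per gene, from -0.19 for Ndufa9 to -0.72 for Ndufa5, and 16 fell with quantile normalization and between 0 and 1 without 1 mouse. The 34 muscle genes, whose fibres are rich in mitochondria, had a median of -2.07 in the same wounds, and their part in these falls was not tested. Cox6c was the most significant (-0.66 ± 0.11, adjusted p = 0.000309), and calls were lost for Cox6c without mouse 1, 2 or 3 (up to 0.00327) and Ndufa5 without mouse 1, 2, 3 or 4 (up to 0.00719).

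Stress and transcription factor lists rose in part. AP-1 and immediate early genes rose in 11 of 17 tested members (between 4 and 7 without 1 mouse) and fell in 0 (median 0.91), led by Fosl1 (2.67 ± 0.38), Ier3 (2.66 ± 0.18) and Junb (1.89 ± 0.13), of which the last read 49.8, 43.5, 47.0 and 47.4 FPKM unwounded and 191, 159, 189 and 165 FPKM in wounds. The unfolded protein response and secretory list rose in 8 of 19 (between 4 and 7 without 1 mouse), with Atf3 (2.38 ± 0.37), the disulfide isomerase Pdia6 (0.99 ± 0.08) and Calr, calreticulin (0.75 ± 0.09). The antioxidant list rose in 5 of 14 and fell in 1, and contained Hmox1, haem oxygenase, which rose from 61.5, 57.6, 60.8 and 53.1 FPKM to 237, 226, 240.2 and 319 FPKM (2.11 ± 0.15), the metallothionein Mt2 (1.19 ± 0.15) and the fallen Gstm1 (-0.83 ± 0.15). Ribosome biogenesis genes all had positive values, 22 of 22 with a median of 0.36, but only Gar1 passed the threshold (0.61 ± 0.11), and Npm1, the most abundant, was at 0.55 ± 0.12 (adjusted p = 0.00305). Clock genes went the other way, with 8 of 16 fallen and 1 risen (median -0.42), and between 2 and 4 fallen and 0 risen without 1 mouse. The output regulators Hlf (-1.28 ± 0.16) and Nr1d1 (-1.15 ± 0.15) fell and Bhlhe40 rose (0.64 ± 0.10), while Arntl (-0.19 ± 0.09, adjusted p = 0.0923) and Clock (-0.09 ± 0.12, adjusted p = 0.566) were not called. The times of day of sampling were not given in the sources used here. Calls were lost for Fosl1 without mouse 1, 2 or 3 (up to 0.00204), Atf3 without mouse 1, 2, 3 or 4 (up to 0.00372), Gstm1 without mouse 1, 2, 3 or 4 (up to 0.0066), Gar1 without mouse 1, 2, 3 or 4 (up to 0.00615), Nr1d1 without mouse 2 (0.00107) and Bhlhe40 without mouse 1, 2, 3 or 4 (up to 0.00322).

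Most members of the growth factor lists of skin development were not called, as for tested genes at large, of which 14.4% were called. Among 24 Wnt ligands and secreted modulators 3 fell and 0 rose (median -0.41), namely the Wnt target and feedback gene Axin2 (10.4, 11.9, 11.3 and 9.3 to 5.97, 5.94, 4.84 and 5.94 FPKM, -0.86 ± 0.11), the agonist Rspo1 (-1.17 ± 0.16) and its relative Rspo3 (-1.03 ± 0.18). Wnt5a (0.49 ± 0.20, adjusted p = 0.0658), Wnt2 (-0.03 ± 0.35, adjusted p = 0.945) and Sfrp4 (0.05 ± 0.27, adjusted p = 0.897) were not called. In the TGF-beta and BMP family 4 of 22 rose and 3 fell. Tgfb1 rose from 34.0, 30.4, 35.6 and 19.7 FPKM to 69.4, 69.6, 76.6 and 76.7 FPKM (1.31 ± 0.15, adjusted p = 2.49e-05), whereas Tgfb2 fell from 21.2, 24.0, 20.7 and 23.8 FPKM to 8.99, 7.48, 7.15 and 11.4 FPKM (-1.33 ± 0.18, adjusted p = 0.000121). The activin subunit genes Inhba (1.80 ± 0.23) and Inhbb (0.94 ± 0.15) and Ltbp2 (1.26 ± 0.21) rose, Bmp4 (-1.18 ± 0.20) and its antagonist Nog, noggin (-1.11 ± 0.16), fell, and the receptor gene Tgfbr2 was not called (-0.02 ± 0.12, adjusted p = 0.897). Of 23 EGF and FGF family genes Nrg1, neuregulin 1, rose (1.27 ± 0.24) and Egf (-1.37 ± 0.25), Fgf1 (-1.15 ± 0.16), Btc (-1.3 ± 0.19) and Fgfr2 (-0.81 ± 0.14) fell. Calls were lost for Rspo1 without mouse 2 (0.00116), Rspo3 without mouse 1, 2, 3 or 4 (up to 0.00566), Tgfb2 without mouse 2 or 3 (up to 0.00139), Inhbb without mouse 2, 3 or 4 (up to 0.00279), Ltbp2 without mouse 1, 2, 3 or 4 (up to 0.0037), Bmp4 without mouse 1, 2, 3 or 4 (up to 0.00432), Nog without mouse 1 or 3 (up to 0.00115), Nrg1 without mouse 1, 2, 3 or 4 (up to 0.00697), Egf without mouse 1, 2, 3 or 4 (up to 0.00822), Fgf1 without mouse 2, 3 or 4 (up to 0.00157), Btc without mouse 1, 3 or 4 (up to 0.00188) and Fgfr2 without mouse 1, 2, 3 or 4 (up to 0.00346).

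Retinoid, steroid and xenobiotic metabolism genes fell in 7 of 28 tested members and rose in 1 (median -0.37). Aldh1a1, a retinaldehyde dehydrogenase, fell by 1.90 (adjusted p = 8.74e-06). Without 1 mouse between 3 and 4 fell. Cyp2e1, the most abundant, was not called over the 24 libraries (-2.10 ± 0.42, adjusted p = 0.00233) and was called in the 8 back libraries alone (0.000917). Of 18 ion channel genes Kcnj2 fell (-1.33 ± 0.20), near the share of all tested genes that fell (4.37%). The call was lost without mouse 1, 2, 3 or 4 (up to 0.0019), and 7 channel genes fell in the 8 back libraries alone. Positional genes fell in 3 of 19 tested members and rose in 0 (median -0.25), namely Tbx15 (-1.0 ± 0.15), Hoxc10 (-1.35 ± 0.24) and Zic1 (-0.86 ± 0.16). Their calls were lost for Tbx15 without mouse 1, 2, 3 or 4 (up to 0.00208), Hoxc10 without mouse 1, 2, 3 or 4 (up to 0.00585) and Zic1 without mouse 1, 2, 3 or 4 (up to 0.00727), and 0 members were called without any 1 mouse. Msx1 (-0.22 ± 0.27, adjusted p = 0.533), Gpc3 (-0.62 ± 0.18, adjusted p = 0.015), Tbx3 (-0.72 ± 0.16, adjusted p = 0.00323), Churc1 (0.16 ± 0.15, adjusted p = 0.411) and Slit2, a guidance ligand (0.05 ± 0.11, adjusted p = 0.743), were not called. Hand2, at 0.035 ± 0.0436 FPKM unwounded and 0.035 ± 0.0332 FPKM in wounds, was near 0 in back skin.

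Some risen genes lay in runs of neighbours on the chromosomes, counted here as uninterrupted series of tested genes that all rose. There were 14 runs of 4 or more risen genes, holding 67 of the 1443 risen genes (4.64%), and 1 run of fallen genes. The number of runs that would arise by chance was not tested. The longest held 7 genes each. One was the Trem receptor cluster on chromosome 17 (bases 48151896 to 48352276, GRCm38) and the other the Sprr cluster on chromosome 3 (92339140 to 92438817), with log2 fold changes between 3.10 and 6.69. Others were a run with Sirpb1 receptors and Car2 on chromosome 3 (6 genes), the Fc receptors on chromosome 1, the chemokines Ccl5, Ccl9, Ccl6, Ccl3 and Ccl4 on chromosome 11 (83525778 to 83664683) and gasdermin C genes with Fam49b on chromosome 15 (5 genes each). Runs of 4 included the Lce3 genes on chromosome 3, with values between 3.39 and 3.70, a pair of stefin runs on chromosome 16, and the run of Aif1, Lst1, Ltb and Tnf on chromosome 17. The 1 fallen run was Mup2, Mup9, Mup1 and Mup10 on chromosome 4 (60135913 to 60582276), with log2 fold changes between -1.78 and -1.24, near-identical copies between which reads may be shared. Mup10 had a log2 fold change of -1.78 ± 0.23, a call lost without mouse 2 (0.00104).

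The response of back was set against the mean response of abdomen and cheek in the same model, since a call at 1 site alone does not show a difference. Only 6 genes differed at an adjusted p under 0.05 (0.0416% of tested genes), against 1590 at an unadjusted p under 0.05. Degs2, which makes phytoceramides of the skin barrier, read 1.5, 0.64, 1.3 and 0.66 FPKM in unwounded back and 32.2, 42.3, 31.6 and 37.1 FPKM in back wounds. The wounds of abdomen (36.8 ± 17.7 FPKM, SD, n = 4) and cheek (33.7 ± 3.54) reached like levels, but unwounded abdomen (4.99 ± 2.85) and cheek (13.7 ± 8.15) started higher. The rise in back exceeded that of the other sites by 2.51 ± 0.33 on the log2 scale (adjusted p = 0.0439).

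The other 5 differences were in genes of muscle, position or near-identical families. Vgll2, a cofactor of muscle development, fell in back by 2.28 from 11.9 ± 5.88 to 1.99 ± 0.894 FPKM, and the difference from the other sites was -1.94 (adjusted p = 0.0455). It was also lower in cheek wounds (5.875 ± 1.89 to 3.155 ± 0.633 FPKM, -0.77), and in abdomen it changed by 0.10. Tbx5, a T-box gene of the limb and ventral body wall, was at or under 0.13 FPKM in unwounded back and at or under 0.40 FPKM in back wounds, while it went from 2.57 ± 0.274 to 1.26 ± 0.361 FPKM in abdomen. Its difference of 1.22 (adjusted p = 0.0455) therefore lay in the other sites. Hoxa10 (-1.18) went from 4.72 ± 1.81 to 1.36 ± 0.773 FPKM in back. It was also lower in abdomen wounds (5.01 ± 1.61 to 2.86 ± 0.276 FPKM, log2 fold change -0.66). In cheek it was at or near 0 and could not fall, so the mean of the other sites understates the abdomen change. Mup20 (-1.68) went from 3.85 ± 1.61 to 0.778 ± 0.162 FPKM in back and was under 1 FPKM at the other sites. Gm21320 (-1.93) was far higher in mouse 3, at 766 FPKM unwounded and 177 FPKM in the wound, than in the other back mice, at 14.3 to 43.9 and 5.09 to 12.8 FPKM. The number of genes was 0 without the replicate block, 1 without back mouse 1, 0 without back mouse 2 or 3, 2 without back mouse 4 and 20 without abdomen mouse 1.

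**Figure D5:**
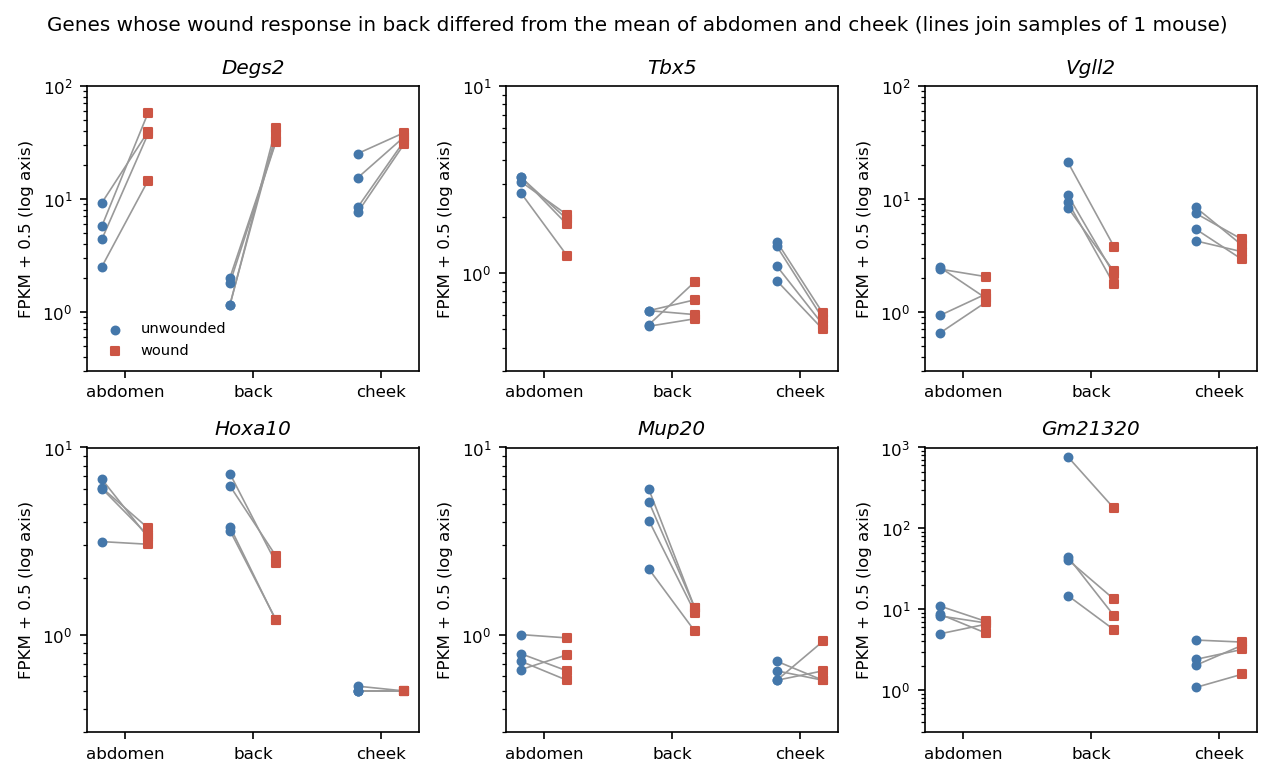
FPKM + 0.5 (log axes) of the 6 genes whose wound response in back differed from the mean of abdomen and cheek, with 4 mice per site, unwounded skin as blue circles, wounds as red squares and lines joining the samples of 1 mouse. In Degs2 the 4 back lines rise from 0.64 to 1.5 FPKM up to the wound levels of the other sites, and in Tbx5 the back values lie low in both states.

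Within-mouse changes differed most in size for 5 genes above 5 FPKM in a back group, and 0 of these were called. Mup17 was at 1.79, 2.16, 0.05 and 163 FPKM unwounded and 0, 0.34, 0.02 and 0 FPKM in wounds, so that 1 mouse carried nearly all of it. Gm13306 and Ccl27b, copies of a skin chemokine gene between which reads may be shared, read 234, 106, 115 and 4.06 and 64.4, 106, 0.93 and 195 FPKM unwounded and 4.47, 59.5, 43.6 and 63.9 and 147, 59.5, 43.6 and 63.9 FPKM in wounds. Plac9a was at 10.5, 13.4, 22.4 and 0 FPKM and 6.7, 6.22, 7.42 and 19.2 FPKM, and Ins2 was the fifth.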

How the data were processed

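Back wounds and adjacent unwounded back skin of 4 mice were analysed as part of 24 RNA-seq libraries of 12 mice. Each mouse gave wound and unwounded skin of a single site, with 4 mice at each of 3 sites. Groups and mouse numbers came from the labels, and replicates were separate mice. The authors sequenced paired reads of 100 bases on a BGISEQ-500 and, per the paper's methods and the submitters' processing notes (HISAT2, Bowtie2 2.2.5, RSEM 1.2.12, DESeq2, build mm10), estimated gene levels and deposited them as FPKM rounded to 2 decimals, 1 column per library. Values of this kind are relative within a library, so a large change in some genes shifts the others, and the depth per library is unknown. The authors' table of their own comparisons, which holds log2 fold changes and adjusted p-values, was not used. All per-sample columns were used.

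FPKM were transformed to log2(FPKM + 0.5), which understates the changes of low genes. Genes that reached 0.5 FPKM in 4 or more libraries (14423 of 18368) were fitted over the 24 libraries in R 4.3.3 with limma 3.58.1 (trended and robust empirical Bayes, statmod 1.5.0), using 12 mouse terms and 1 wound effect per site, with the spread estimated over all sites. P-values were two-sided and adjusted by Benjamini-Hochberg over all tested genes. The threshold was 0.001 for the wound effect and 0.05 for the difference between back and the mean of abdomen and cheek. Each mouse number stands for both libraries of the same animal, per the labels. Deviations from the group means of the 2 back libraries of a mouse correlated at r = 0.16 to 0.53 (mean 0.35), against a mean of -0.12 between different mice, across genes, which are not independent replicates. An exact permutation test of 4 against 4 libraries could not give less than p = 0.0286, and sign changes in 4 pairs not less than 0.125, so single genes were tested in the model only. The code was tested on simulated data with known changes.

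The genes named were the 12 largest called rises and falls with at least 5 FPKM in a back group, the 4 smallest p-values and the 6 most abundant called genes in each direction, for each of 46 gene lists the called members with the smallest p in each direction and with the largest change and the member with the highest level, genes the paper names, the 5 genes that differed most between sites and the 5 with the widest range over mice. Other list members, neighbouring genes on chromosomes and the pancreas genes were added to these once values were known. A few genes that the rule names are not reported here. The comparison, the lists and the rule were chosen with earlier results of these data known. Promoters came from RefSeq (GRCm38.p6), and 14394 of the 14423 tested genes were matched to RefSeq positions. Alternatives were pseudocounts of 0.1 and 1, a filter of 1 FPKM or none, scaling by median ratios, quantile normalization, no trend or robust step, the 8 back libraries alone, no term for the mouse (no replicate block), a threshold of 0.05 and each back mouse left out. Leaving out each abdomen and each cheek mouse, and leaving out the 5 libraries with pancreas transcripts with no term for the mouse, were added after seeing the data.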

Additional observations from a re-analysis of the deposited data

Results flagged for a closer look

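In the named genes, 520 groups of 4 back libraries were examined for a highest or lowest library set far apart from the rest, by Dixon's ratio of the gap to the range at its 95% critical value. Chance sets 1 library apart in about 1 in 20 such groups, and 35 were found, 20 in unwounded skin and 15 in wounds. Mouse 3 held 16 of them, mouse 4 held 9, and mice 1 and 2 held 5 each. Values below are FPKM, with the nearest other library of the group after each.

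In unwounded skin, mouse 3 was highest for Lgmn (137.9, next 85.1), Gm21320 (766, next 43.9), Timp1 (31.8, next 18.1), Isg15 (33.8, next 7.79), Itgam (12.2, next 7.60), Loxl3 (2.32, next 1.59), Gm5416 (0.87, next 0), Trem1 (0.07, next 0) and Cxcl2 (0.06, next 0), and lowest for Myf5 (0.06, next 0.33). Mouse 1 was highest for BC100530 (179, next 33.3), Inhbb (6.68, next 4.33), Gjb6 (1.94, next 1.36) and Adamts4 (1.24, next 0.59). Mouse 2 was highest for Krt6a (68.8, next 49.5) and Hoxd3 (0.94, next 0.54). Mouse 4 was highest for Mup17 (163, next 2.16), Clock (6.72, next 5.16) and Sprr2a2 (1.14, next 0), and lowest for Bcl3 (5.87, next 8.01).

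In the wounds, mouse 3 was highest for Lgmn (460.7, next 301), Gm21320 (177, next 12.8) and Wnt5a (7.71, next 6.20), and lowest for Aqp4 (0.16, next 0.55), Axin2 (4.84, next 5.94) and Wnt2 (2.71, next 4.62). Mouse 4 was highest for Ctsk (588.5, next 406), Krt79 (489, next 451.5), Hmox1 (319, next 240.2) and Plac9a (19.2, next 7.42), and lowest for Il33 (85.9, next 159). Mouse 2 was highest for Bgn (706, next 664), Adamts4 (9.34, next 7.25) and Mup17 (0.34, next 0.02), and mouse 1 for Tgfbr2 (93.0, next 76.9). For Lgmn and Gm21320 the same mouse stood apart in both states.

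The wound response of 6 genes differed between back and the mean of abdomen and cheek, by the contrast of the site effects in limma. The log2 differences, back minus the others, were 2.51 for Degs2, 1.22 for Tbx5, -1.94 for Vgll2, -1.93 for Gm21320, -1.68 for Mup20 and -1.18 for Hoxa10, with adjusted p between 0.0439 and 0.0455.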

How the results depend on the processing

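Depth is unknown, 4 mice per site limit the precision, and the wound calls depended most on the number of back mice. Leaving out 1 back mouse gave 910 to 1191 called genes in place of 2074, with 757 to 908 risen and 153 to 283 fallen. Leaving out an abdomen or a cheek mouse, which also enters the fit, gave 1726 to 2322 called genes, with up to 1568 risen and up to 825 fallen. With a back mouse left out, the share that rose was 76.2% to 83.2% against 69.6% with all mice. Over all mice left out in turn, the genes that differed between sites numbered 0 to 20. Without the 5 libraries with pancreas transcripts and with no replicate block, 1273 genes were called, of which 282 fell, and 1 differed between sites. Quantile normalization gave 989 fallen genes, and a threshold of 0.05 gave 6622 calls, 4044 up and 2578 down. The count of genes that differed between sites was 0 with a pseudocount of 0.1 (1603 at an unadjusted p under 0.05), 0 with a filter of 1 FPKM (1529) and 0 with no replicate block (1159), all in limma. The fit with no replicate block, which ignores the pairing by mouse, called 2078 genes, and of the named genes 19 calls were lost and 5 gained. The other settings kept the number of called genes between 1726 and 2322. Fewer samples entered the fits without a mouse, and otherwise the cause of these shifts was not tested.

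Of 262 named genes 184 were called, and 112 of these stayed past the threshold in the same direction under every alternative except those added after seeing the data. Of the 78 not called, 17 passed in the 8 back libraries alone. The direction turned for 0 called genes and for 19 that were not called, which had log2 fold changes near 0 or a wide spread over mice. Over the mice left out in turn, their values ranged from -0.050 to 0.068 for Msmo1, -0.28 to 0.088 for Hba-a1, -0.079 to 0.15 for Sfrp4, -0.13 to 0.046 for Tgfbr2, -0.058 to 0.13 for Slit2, -0.18 to 0.043 for Prelp, -0.026 to 0.054 for Hand2, -0.41 to 0.31 for Wnt2, -2.59 to 0.53 for Gm13306, -1.07 to 1.21 for Plac9a, -0.42 to 1.77 for Ccl27b, -0.26 to 0.065 for Cd163, -0.17 to 0.029 for Clock, -0.15 to 0.23 for Krt10 and -0.052 to 0.25 for Myf5. With quantile normalization the turned values were -0.062 for Sfrp4, -0.022 for Fgfr1, -0.031 for Slit2, -0.15 for Hand2, -0.00041 for Tbx5 and -0.065 for Pax7. Median-ratio scaling gave -0.021 for Sfrp4, -0.0091 for Slit2, -0.0032 for Hand2 and -0.054 for Krt10. Without the libraries with pancreas transcripts they were 0.15 for Msmo1, 0.24 for Hba-a1, -0.024 for Hand2, 0.46 for Gm13306, -1.03 for Ccl27b, 0.077 for Il6ra and -0.037 for Pax7.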

Other observations

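The unwounded back libraries of mice 1 and 3 contained transcripts of both endocrine and exocrine pancreas. The sum over 15 genes (Ins2, Ins1, Iapp, Gcg, Sst, Ppy, Amy2a5, Cela2a, Cela3b, Prss2, Cpa1, Cpb1, Clps, Cel and Ctrl, chosen after their values were seen) was 194 FPKM in mouse 1 and 203 FPKM in mouse 3, and lay between 0 and 0.8 FPKM in the other 6 back libraries. The hormone genes stood at 35.2 and 36.1 FPKM for Ins1, 9.81 and 10.7 FPKM for Iapp and 4.17 and 5.61 FPKM for Gcg in those libraries, and the digestive enzyme gene Amy2a5 at 11.7 and 13.2 FPKM. Across the series 5 of 24 libraries held Ins2 at 1 FPKM or more, namely these and the abdomen wounds of mice 2, 3 and 4, and the ratio of Ins2 to Ins1 lay between 2.83 and 3.23 in all 5. The other 19 libraries were listed at 0 for both insulin genes. Of the 15 genes, 0 were called in the back comparison by limma. Genes high only in unwounded mice 1 and 3 among the back libraries could hardly pass that test. The counts without the 5 libraries are given with the other settings. How the transcripts entered these libraries was not tested.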
